A study of Homo sapiens with 19 samples.

Results

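MED26, a subunit of the Mediator complex, and RNA polymerase II (Pol II) were compared by the places each occupied in U2OS cells, an established human osteosarcoma line. The members were all 27006 MED26 peaks and all 30760 Pol II peaks found after mock siRNA, together 57766 of the 431797 peaks in the 11 peak lists of the study. Peaks of the 2 lists that shared 1 bp or more were joined into 1 site, which gave 14185 sites with both factors, 10412 with MED26 only and 16484 with Pol II only, 41081 in all. The classes were then compared by place, histone mark, EP400 and RNA level, none of which entered the choice of members.

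Mediator is a large complex that relays signals from DNA-bound activators at enhancers and promoters to Pol II and helps to assemble the initiation machinery. MED26 is found in a form of Mediator that travels with Pol II, and it can bind the general initiation factor TFIID as well as elongation complexes that contain P-TEFb. Pol II itself gathers at gene starts, where it often pauses, is spread thinly along gene bodies and gathers again past the polyadenylation site.

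The culture medium of all cells was DMEM with a Tet-approved serum. Mock cells received siRNA directed at GFP, and the cells of the second MED26 and Pol II libraries received siRNA directed at EP400, the remodelling ATPase that works in the TIP60 complex. Both were harvested after 72 hr. Lists of the histone variants H2AZ and H3.3 and of the histone marks H3K18ac and H3K4me1 came from mock cells, and 1 EP400 list came from 3 immunoprecipitations whose labels name no siRNA. Each of the other antibodies had 1 library per condition, and RNA was measured in 1 mock library. The shares below therefore have no replicate check and no test. Their Wilson 95% intervals cover counting error alone, since sequencing depth is unknown and neighbouring peaks are not independent. The RNA of mock cells fitted the label in part: VIM, encoding the mesenchymal filament protein vimentin, stood at 618 FPKM (fragments scaled to transcript length and library size), COL1A1 at 376 and SPARC at 229, while the collagen gene COL1A2 was at 0.0114 and RUNX2, a regulator of bone formation, at 1.51. Other cell types gave a mixed picture. Of the epithelial genes, KRT18 (519 FPKM), KRT8 (369), CLDN4 (63.4) and KRT14 (6.22) were present, while EPCAM was at 0.680 and CDH1 at 0.0472. Of the neuronal genes, RBFOX3 was at 11.2, SYP at 3.55 and SNAP25 at 0.921. The blood gene PTPRC was at 0.00835, and CD3E, HBB and ALB were listed at 0.

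Promoters of 6 genes show the 3 classes before their values are given. Each is the RefSeq promoter of the GRCh38.p14 build, 250 bases before the start to 50 after it, 5′ to 3′ on the gene's strand, and stands for the highest RNA levels in its class among single-gene loci whose start lay in a site of that class. Capitals mark matches on either strand to 1 of 8 short motifs: TATAAA, the core of the element bound by TBP, CCAAT, known to bind NF-Y, GGGCGG, known as the GC box, CCGGAAG, a core bound by ETS factors, TGANTCA, known to bind AP-1, TGACGTCA, the cyclic AMP response element, AAGATGGC, a core bound by YY1, and CACGTG, which is the canonical E-box. None of these strings contains another, and matches that overlap run together. RPLP1 (chr15:69452568-69452867, plus strand), encoding an acidic ribosomal stalk protein, and GAPDH (chr12:6535014-6535313, plus strand), the glycolytic dehydrogenase, had both factors.
RPLP1: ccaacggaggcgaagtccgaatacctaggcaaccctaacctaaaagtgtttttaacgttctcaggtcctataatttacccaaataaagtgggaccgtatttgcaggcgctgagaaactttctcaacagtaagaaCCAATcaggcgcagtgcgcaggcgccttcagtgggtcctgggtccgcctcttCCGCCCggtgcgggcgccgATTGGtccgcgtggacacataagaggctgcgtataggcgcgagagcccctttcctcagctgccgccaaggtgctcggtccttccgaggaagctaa
GAPDH: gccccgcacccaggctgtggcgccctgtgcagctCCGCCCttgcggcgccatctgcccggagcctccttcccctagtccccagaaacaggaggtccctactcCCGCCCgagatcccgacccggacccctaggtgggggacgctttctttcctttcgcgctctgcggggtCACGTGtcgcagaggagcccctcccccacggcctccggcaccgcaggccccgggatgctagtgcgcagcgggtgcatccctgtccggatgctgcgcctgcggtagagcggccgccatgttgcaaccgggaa
HLA-C (chr6:31272043-31272342, minus strand), an antigen-presenting molecule, and BLVRB (chr19:40465696-40465995, minus strand), biliverdin reductase B, had Pol II only.
HLA-C: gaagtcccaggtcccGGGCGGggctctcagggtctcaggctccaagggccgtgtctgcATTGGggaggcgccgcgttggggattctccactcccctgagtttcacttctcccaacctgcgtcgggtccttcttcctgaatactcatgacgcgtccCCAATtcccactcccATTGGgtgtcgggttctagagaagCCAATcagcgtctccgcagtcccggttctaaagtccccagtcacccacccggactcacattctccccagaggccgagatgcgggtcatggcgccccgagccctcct
BLVRB: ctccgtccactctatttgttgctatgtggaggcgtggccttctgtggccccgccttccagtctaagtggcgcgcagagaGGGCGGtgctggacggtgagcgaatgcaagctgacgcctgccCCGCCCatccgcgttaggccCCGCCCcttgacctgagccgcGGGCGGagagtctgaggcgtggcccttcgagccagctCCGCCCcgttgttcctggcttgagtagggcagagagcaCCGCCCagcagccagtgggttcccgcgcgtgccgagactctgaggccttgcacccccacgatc
COX7B (chrX:77899218-77899517, plus strand), a cytochrome c oxidase subunit, and CPA4 (chr7:130292911-130293210, plus strand), a carboxypeptidase, had MED26 only.
COX7B: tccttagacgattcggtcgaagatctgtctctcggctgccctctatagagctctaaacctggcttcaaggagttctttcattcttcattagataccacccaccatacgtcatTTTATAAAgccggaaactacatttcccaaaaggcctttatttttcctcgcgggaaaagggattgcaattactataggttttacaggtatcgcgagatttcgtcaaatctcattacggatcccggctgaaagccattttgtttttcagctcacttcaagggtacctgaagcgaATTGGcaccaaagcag
CPA4: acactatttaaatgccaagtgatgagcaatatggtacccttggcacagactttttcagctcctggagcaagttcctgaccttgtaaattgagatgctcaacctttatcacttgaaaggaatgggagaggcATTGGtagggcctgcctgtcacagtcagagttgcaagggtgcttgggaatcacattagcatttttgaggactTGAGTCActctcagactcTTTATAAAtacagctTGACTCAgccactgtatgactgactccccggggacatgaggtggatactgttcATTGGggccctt
Both MED26-only promoters hold 2 overlapping TATAAA matches, 1 on each strand, and the other 4 hold none. These 6 promoters do not stand for their classes in this. Over 101 MED26-only promoters TATAAA matched 15.8% (9.99 to 24.2), beside 21.2% with neither factor and 11.5% of all RefSeq promoters. The MED26-only site at CPA4 (chr7:129932801-129933100, hg19, 300 bp) overlapped none of the mock lists of H3K18ac, H3K4me1, H2AZ and H3.3 and not the EP400 list. It also overlapped neither the MED26 nor the Pol II list after EP400 siRNA. The Pol II-only site at HLA-C (chr6:31239101-31240100, hg19) overlapped the MED26 list after EP400 siRNA. GC contents of the MED26-only promoters were 44.0% (COX7B) and 46.3% (CPA4), against 56.0% for RPLP1, 70.7% for GAPDH, 62.7% for HLA-C and 67.3% for BLVRB. BLVRB and CPA4 lie outside the rule for named genes and were chosen after their values were seen, and HLA-C has near-identical relatives whose reads may have been split between them.

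The share of MED26 peaks with Pol II was larger than the share of Pol II peaks with MED26. Both shares come from the same 14185 shared sites, so they differ through the unequal list lengths and through sites that hold several MED26 peaks. Of the MED26 peaks, 16594 (61.4%, 60.9 to 62.0) shared 1 bp or more with a Pol II peak, and of the Pol II peaks, 14276 (46.4%, 45.9 to 47.0) shared 1 bp or more with a MED26 peak. Among peaks at or above each list's median width (200 bp for MED26, 500 bp for Pol II) the 2 shares were 74.2% and 71.9%. Width separated the shared from the unshared peaks in both lists. MED26 peaks with Pol II had a median width of 400 bp, those without it 100 bp. Pol II peaks with MED26 had a median width of 1100 bp, those without it 200 bp. The share of MED26 peaks at Pol II rose from 29.5% among peaks of 100 bp, the narrowest that the list holds, to 97.7% of the 2522 peaks over 900 bp. For Pol II peaks the share with MED26 went from 5.32% at 100 bp to 92.5% of the 8975 peaks over 900 bp. Few wide peaks of either factor were without the other.

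Where the factors met, the MED26 peak usually sat within the Pol II peak. Of the 14185 shared sites, 12044 (84.9%) were made of 1 MED26 and 1 Pol II peak. In these pairs the centres lay a median of 100 bp apart, which is 1 bin of the lists, and in 90% of them at most 300 bp. The MED26 peak lay wholly inside the Pol II peak in 9628 pairs (79.9%), and the Pol II peak was the wider in 10062 (83.5%). The median widths in pairs were 500 bp for MED26 and 1000 bp for Pol II. Across pairs the widths had a Spearman rho of 0.54, a description over sites of the same libraries. A further 2064 shared sites (14.6%) held 2 or more MED26 peaks, up to 7 in 1 site, and 85 (0.599%) held 2 or more Pol II peaks.

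The 3 classes lay in different places. A gene end here reaches 2 kb to both sides of each boundary of a locus in the RNA table, so it takes in starts and ends of transcription. Sites with both factors were at gene ends in 9668 cases (68.2%, 67.4 to 68.9), inside a locus in 17.4% and between loci in 14.4%. Pol II-only sites were at gene ends in 5994 cases (36.4%, 35.6 to 37.1), inside a locus in 38.4% and between loci in 25.2%. MED26-only sites were at gene ends in 1919 cases (18.4%, 17.7 to 19.2), inside a locus in 42.0% and between loci in 39.6%. The order of the classes at gene ends did not turn when a gene end was taken as 1 kb or 5 kb.

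**Figure D1:**
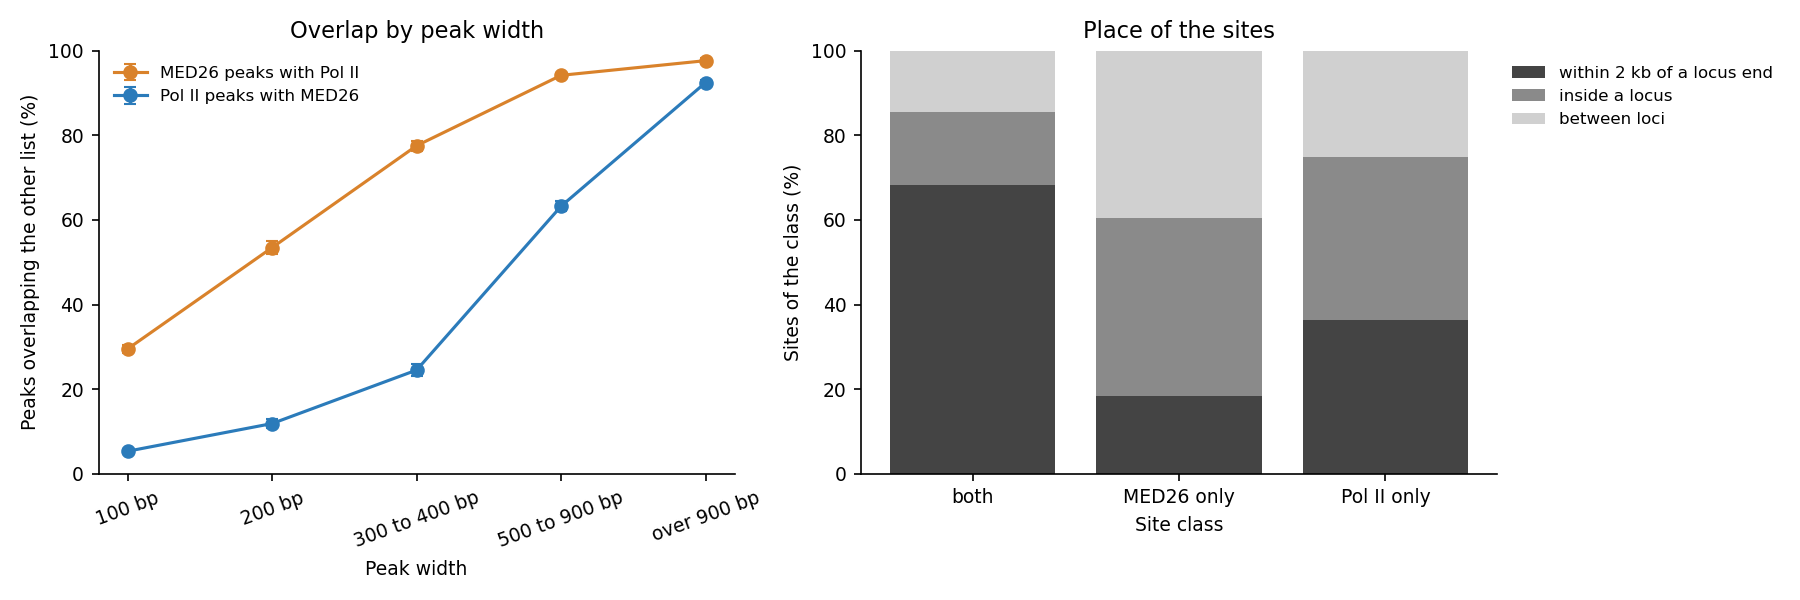
Left: share of MED26 and of Pol II peaks (%) that overlapped a peak of the other list, by peak width in bp, with Wilson 95% intervals. Right: share of the sites of each class (%) within 2 kb of a locus end, inside a locus and between loci. Both lines climb with width, MED26 from 29.5% to 97.7% and Pol II from 5.32% to 92.5%, and the dark bar is tallest for sites with both factors (68.2%) and shortest for MED26-only sites (18.4%).

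The widest sites of each class show these differences. The widest site with both factors ran for 12400 bp (chr7:2555101-2567500, hg19) over the locus of LFNG, a glycosyltransferase that modifies Notch, at 223 FPKM, and held 1 Pol II peak and 7 MED26 peaks, the widest of them 3400 bp. The site at TNRC18 (chr7:5458501-5470200, 72.5 FPKM) held 1 Pol II peak of 11700 bp with 6 MED26 peaks. At both sites H3K18ac, H3K4me1, H2AZ, H3.3 and EP400 were also present. The widest Pol II-only site at a gene end (chr17:80016601-80020400, 3800 bp) lay at DUS1L (132 FPKM) and GPS1, a COP9 signalosome subunit (320 FPKM), and overlapped H3.3 but none of H3K18ac, H3K4me1, H2AZ and EP400. The widest MED26-only sites were narrower, and the longest measured 2200 bp (chr15:63399101-63401300). It lay between loci and overlapped H3K18ac, H3K4me1, H3.3 and EP400 but not H2AZ. At gene ends, MED26-only sites of 1300 bp and 1100 bp lay at NNMT, nicotinamide N-methyltransferase (chr11:114168101-114169400, 345 FPKM), and BCL2L1, an anti-apoptotic BCL2 relative (chr20:30307801-30308900, 173 FPKM). Both overlapped H3K18ac and the MED26 list after EP400 siRNA, and neither overlapped the Pol II list there.

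Taken over all widths and places, H3K18ac, H2AZ, H3.3 and EP400 were more frequent at shared sites than at either single-factor class, and H3K4me1 was most frequent at MED26-only sites. H3K18ac, an acetylation found at active promoters and enhancers, overlapped 81.6% of sites with both factors, 38.7% (37.8 to 39.6) of MED26-only sites and 22.7% (22.1 to 23.3) of Pol II-only sites. H3K4me1, a methylation that marks enhancers and the flanks of promoters, overlapped 14.9%, 22.1% and 12.4%. H2AZ, the histone variant placed beside gene starts, overlapped 75.9%, 9.82% (9.26 to 10.4) and 16.8% (16.2 to 17.4). H3.3, the variant deposited outside replication, overlapped 44.9%, 30.5% and 26.9%. EP400 overlapped 3635 of the sites with both factors (25.6%, 24.9 to 26.4), 160 of those with MED26 only (1.54%) and 168 of those with Pol II only (1.02%). None of these 5 lists touched 3.37% of the sites with both factors, 40.6% of MED26-only sites and 47.7% of Pol II-only sites.

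Compared with Pol II-only sites, MED26-only sites overlapped H3K18ac more often by 16 percentage points (14.9 to 17.1) and H3K4me1 by 9.73 points (8.79 to 10.7). They overlapped H2AZ less often over all sites, by a difference of -6.99 points (-7.79 to -6.18). It reached -30.3 points among peaks at or above each list's median width, but these cutoffs differ, 200 bp for MED26 and 500 bp for Pol II. At site widths of 300 to 400 bp, H2AZ overlapped 16.9% of MED26-only against 19.8% of Pol II-only sites. From 500 to 900 bp the shares were 17.1% and 41.5%. At narrow sites the H2AZ order was the other way, with 7.56% of 7232 MED26-only against 5.85% of 7372 Pol II-only sites at 100 bp, and 13.4% of 1802 against 12.02% of 2979 at 200 bp. The difference for H3.3 was 3.58 points over all sites, and it fell to 1.09 points (-0.130 to 2.33) with peaks up to 1 kb apart counted as together. At like widths it was larger, with 46.3% of MED26-only against 32.4% of Pol II-only sites at 300 to 400 bp and 54.99% against 32.99% at 500 to 900 bp. The difference for EP400 was 0.518 points. It turned to -0.444 points (-1.31 to 0.417) among the wider peaks, an interval that holds both signs, with the same unequal cutoffs. At like site widths EP400 was more frequent at MED26-only than at Pol II-only sites in each width class. It went from 0.968% against 0.298% at 100 bp to 15.3% against 5.19% over 900 bp. MED26-only sites had the higher H3K18ac share in each place. At gene ends the mark overlapped 24.8% of MED26-only and 16.7% of Pol II-only sites, inside loci 36.8% and 21.6%, and between loci 47.3% and 33.1%. For H2AZ the shares in the same places were 12.5% and 21.04%, 5.65% and 8.46%, and 12.99% and 23.4%. Sites with both factors kept H3K18ac in 81.3% to 82.2% of cases in all 3 places, while H2AZ went from 83.2% of them at gene ends to 58.4% inside loci.

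Most of these shares changed with site width, and H3K4me1 and H2AZ separated the single-factor classes most among the widest sites. All 59 MED26-only sites over 900 bp overlapped H3K18ac (93.9% to 100%), 74.6% (62.2 to 83.9) overlapped H3K4me1 and 16.9% (9.48 to 28.5) overlapped H2AZ. Of the 674 Pol II-only sites over 900 bp, 57.7% overlapped H3K18ac, 19.1% H3K4me1 and 55.3% (51.6 to 59.1) H2AZ. Of the 8690 sites with both factors over 900 bp, 92.0% overlapped H3K18ac, 14.3% H3K4me1 and 83.3% H2AZ. Between 500 and 900 bp the 351 MED26-only sites had H3K18ac in 88.6% of cases and H3K4me1 in 59.5%, against 38.5% and 15.6% of the 2425 Pol II-only sites and 68.6% and 13.6% of the 4212 sites with both factors. H3K18ac was thus more frequent at MED26-only than at shared sites of that width. The same order was found at 300 to 400 bp (64.9% against 57.95%) and, with overlapping intervals, at 200 bp (48.4% against 42.6%), while at 100 bp it was 29.9% against 45.5%. The width of a shared site spans its joined peaks, while that of a MED26-only site is its MED26 peak alone. Sites of like width therefore need not hold MED26 peaks of like width. H3.3 overlapped 28.3% of the shared sites of 500 to 900 bp, below both single-factor classes. EP400 was most frequent among the widest sites of each class, at 34.7% of sites with both factors, 15.3% of MED26-only and 5.19% of Pol II-only sites over 900 bp.

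**Figure D2:**
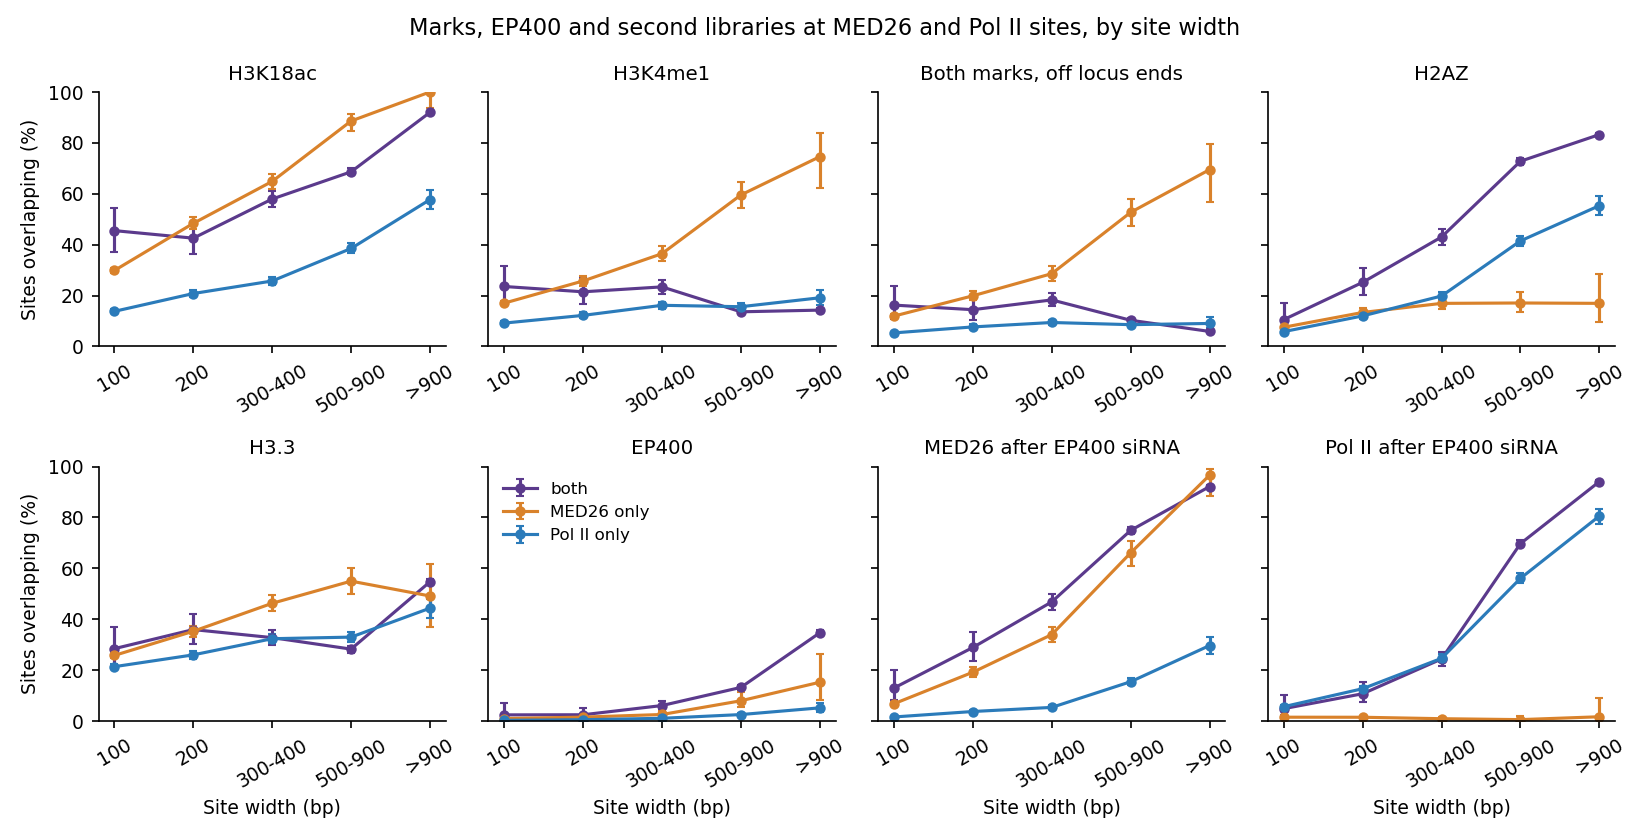
Share of sites (%) of each class that overlapped each list, by site width in bp, with Wilson 95% intervals. Over 900 bp, MED26-only sites stand highest for H3K4me1 (74.6%) and for both marks away from gene ends (69.5%) and lowest for H2AZ (16.9%) and for Pol II after EP400 siRNA (1.69%).

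At enhancers, MED26 without Pol II was the most frequent class. An enhancer site is one that overlapped a stretch shared by H3K4me1 and H3K18ac and lay at no gene end. Of 4075 such sites, 1726 (42.4%) had MED26 only, 1178 (28.9%) had Pol II only and 1171 (28.7%) had both. In all places together, gene ends included, MED26-only sites were 25.3% of sites. The order at enhancers came from narrow sites, since 864 of the 1726 were 100 bp wide. From 500 to 900 bp there were 434 enhancer sites with both factors, 185 with MED26 only and 208 with Pol II only, and over 900 bp there were 514, 41 and 61. Enhancers took 16.6% of all MED26-only sites, 7.15% of Pol II-only sites and 8.26% of sites with both factors. These totals include gene ends, where by definition no enhancer site lies. Inside loci, enhancers took 22.6% of sites with both factors, 18.3% of MED26-only and 10.3% of Pol II-only sites. Between loci the shares were 29.9%, 22.4% and 12.7%, so away from gene ends sites with both factors had the largest share. The enhancer sites with both factors had a median width of 900 bp, and the others 100 bp (MED26 only) and 200 bp (Pol II only). H3.3 overlapped 69.3% of the enhancer sites with both factors, 52.7% of those with MED26 only and 50.4% of those with Pol II only. H2AZ overlapped 37.9%, 14.1% and 16.9%, and EP400 14.9%, 2.90% and 2.46%. Seen from the enhancers, 24388 stretches lay away from gene ends, of which 10.8% held a MED26 peak, 9.81% held a Pol II peak and 83.5% held neither. Among the 3 widest enhancer sites with both factors, 1 ran for 6000 bp inside the locus of FOSL2, an AP-1 subunit (chr2:28612701-28618700, 65.5 FPKM), with MED26 peaks of up to 4100 bp.

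The second library of each antibody, from cells treated with EP400 siRNA, served as a further sample of the same sites, although it differs in the siRNA. MED26 peaks of that library overlapped 82.3% of sites with both factors, 13.99% (13.3 to 14.7) of MED26-only and 5.88% (5.53 to 6.25) of Pol II-only sites. Pol II peaks of that library overlapped 80.1%, 1.43% (1.22 to 1.68) and 20.9% (20.3 to 21.5). Over all places, each single-factor class met its own factor again more often than the other. Among sites over 900 bp, MED26-only sites met MED26 again in 57 of 59 cases (96.6%) and Pol II in 1 (1.69%, 0.300 to 8.996). Pol II-only sites of that width met Pol II again in 543 of 674 cases (80.6%, 77.4 to 83.4) and MED26 in 200 (29.7%, 26.3 to 33.2). At enhancers, MED26-only sites met MED26 again in 402 of 1726 cases (23.3%) and Pol II in 3 (0.174%). Width set these apart too: 8.33% of the 864 MED26-only enhancer sites of 100 bp met MED26 again, against 39 of the 41 over 900 bp, of which 0 met Pol II, a share whose interval reaches 8.57%. Pol II-only enhancer sites did not follow the order found over all places. They met MED26 in 98 of 1178 cases (8.32%, 6.87 to 10.04) and Pol II in 76 (6.45%, 5.19 to 8.001), and these intervals overlap. The second lists held 24366 MED26 peaks, against 27006 in mock cells, and 20987 Pol II peaks, against 30760. Rates of meeting the 2 factors are therefore not on an equal footing. The siRNA and the library differ together here, and their parts in these rates cannot be told apart.

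RNA levels followed the classes at locus ends. The loci were clusters of overlapping transcripts without strand, with FPKM summed over rows of 200 nt or more, and 3672 of 20146 (18.2%) held more than 1 gene. Among 20091 loci with an estimate, 10200 (50.8%) had a site with both factors at an end, with a median of 5.91 FPKM (95% interval of the median 5.62 to 6.29). Pol II-only loci (1991, 9.91%) had a median of 0.603 FPKM (0.518 to 0.689), and MED26-only loci (296, 1.47%) of 0.165 FPKM (0.0871 to 0.270). The 322 loci with both factors at separate sites had a median of 0.961 FPKM and the 7282 with neither 0.0128 FPKM. The share of loci at 1 FPKM or more was 79.6% with both factors, 42.1% (39.9 to 44.3) with Pol II only, 27.03% (22.3 to 32.4) with MED26 only and 14.5% with neither. Among peaks at or above each list's median width the medians moved to 0.935 FPKM (0.758 to 1.32) for MED26-only and 1.40 FPKM (1.22 to 1.58) for Pol II-only loci. Among loci kept for an FPKM of 1 or more, the medians were 8.92 FPKM (3.44 to 13.4) for 80 MED26-only and 4.83 FPKM (4.22 to 5.43) for 838 Pol II-only loci, so their order was not resolved there.

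Read by RNA level, the share of loci with both factors rose at every step. It was 2.80% of the 3428 loci listed at 0 FPKM, 44.9% from 0.1 to 1 FPKM, 71.2% from 1 to 5 FPKM and 90.4% (88.6 to 92.0) of the 1166 loci over 100 FPKM. Pol II without MED26 was most frequent in the middle, at 17.9% (16.7 to 19.1) of loci from 0.1 to 1 FPKM, and was found at 3.59% of loci at 0 FPKM and 2.83% of those over 100. MED26 without Pol II reached 3.01% of loci above 0 and up to 0.1 FPKM and stayed below that in the other bins. Neither factor was listed at the ends of 59 loci over 100 FPKM (5.06%).

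**Figure D3:**
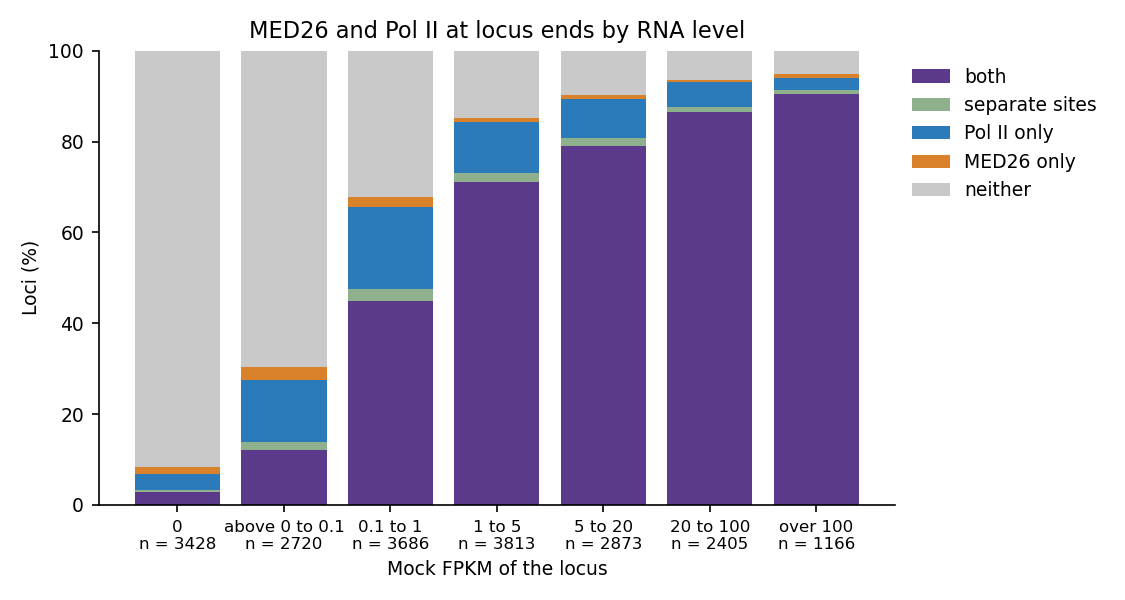
Share of loci (%) in each class by the FPKM of the locus in mock cells, with the number of loci under each bar. Sites with both factors rise from 2.80% of loci at 0 FPKM to 90.4% over 100 FPKM, and the Pol II-only band is widest from 0.1 to 1 FPKM (17.9%).

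The loci with the highest RNA level in each class show what the locus rule can hide. With both factors these were RPLP1 (15291 FPKM, the authors' confidence limits 0 to 43255), GAPDH (12383, 0 to 111079), LGALS1, which encodes galectin-1 (8753, 0 to 19117), ACTB, which encodes beta-actin (8214, 0 to 22942), RPL8 and RPS21. With MED26 only they included KRT8 with KRT18 (888 FPKM), VIM (619 FPKM for its locus), CD81 (476 FPKM) and the locus of ARPC4 (278 FPKM). In each of these 4 a second gene overlaps the locus, so its ends are not the start of the named gene, and a site with both factors lay further inside. COX7B (322 FPKM, limits 29.2 to 614) is a single-gene locus with no site with both factors in it: its start lay in a MED26-only site of 200 bp (chrX:77154901-77155100, hg19) that overlapped H2AZ and the MED26 list after EP400 siRNA. RPL13AP20 (467 FPKM) is a pseudogene, and ANXA2P2 (559 FPKM, neither factor) is another, so their FPKM is uncertain, since reads of the parent genes match them too. With Pol II only, the locus of ALYREF and ANAPC11 (828 FPKM) and that of IDH3G and SSR4 (479 FPKM) likewise held a site with both factors inside. KRT17, a keratin (615 FPKM), held 2 Pol II-only sites, HLA-C (541 FPKM) 1 and IFITM3, an interferon-induced membrane protein (482 FPKM), 1. With neither factor, the locus of LMNA and 6 neighbours (724 FPKM) held 7 sites with both factors inside it, whereas SLC25A6 (359 FPKM), an ADP/ATP carrier gene with an identical copy on chromosome Y, held none.

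Sites inside loci, away from their ends, had a different relation to RNA. Taken over sites, the median FPKM of the host locus was 18.6 for Pol II-only sites, 12.4 for sites with both factors and 6.36 for MED26-only sites. A locus counts here once for each site it holds, and a site in overlapping loci takes the highest FPKM. In hosts of 20 FPKM or more, H2AZ overlapped 48.4% of the 1007 sites with both factors, 1.67% of the 1317 MED26-only sites and 2.50% of the 3037 Pol II-only sites. In hosts under 1 FPKM the H2AZ shares were 66.8%, 11.8% and 22.6%. H3.3 went the other way and overlapped 63.5%, 40.6% and 37.7% in the hosts of 20 FPKM or more, against 33.8%, 19.9% and 15.4% in those under 1 FPKM. H3K18ac overlapped 33.1% of MED26-only and 15.6% of Pol II-only sites in the hosts of 20 FPKM or more.

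Starts and downstream ends of transcription were separated in the 8928 single-gene loci over 8 kb whose strand the RefSeq table gives. Strand was known for 12116 of 16436 single-gene loci (73.7%), so these values describe that subset. Orientation by this table put H3K18ac at 53.9% of starts and 7.08% of downstream ends. A site with both factors lay within 2 kb of 5117 starts (57.3%) and 402 downstream ends (4.50%). Pol II-only sites lay at 9.83% of starts and 4.91% of downstream ends. MED26-only sites lay at 1.13% of starts (0.932 to 1.37) and 1.47% of downstream ends (1.24 to 1.74), with intervals that overlap. Among the 1387 loci of 20 FPKM or more, both factors lay at 90.9% of starts, Pol II only at 4.61% and MED26 only at 0.216%. At the downstream ends of these loci, Pol II-only sites were the most frequent (17.1%, 15.2 to 19.2), ahead of both factors (11.6%, 10.03 to 13.4) and MED26 only (2.81%). H3.3 lay at 62.9% and H2AZ at 5.55% of these downstream ends.

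Along the gene, MED26 and Pol II peaked at the same place. Both lists covered the most loci in the bin centred 100 bp downstream of the start, at each RNA level. In loci of 20 FPKM or more, 72.7% were covered there by MED26 and 91.7% by Pol II. In loci of 1 to 20 FPKM the values were 64.2% and 85.9%, and under 1 FPKM they were 16.4% and 30.4%. Around the downstream ends of loci of 20 FPKM or more, Pol II reached 9.23% at 900 bp past the end and was still at 7.64% at 3900 bp. MED26 reached 3.60% at 1500 bp past the end.

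**Figure D4:**
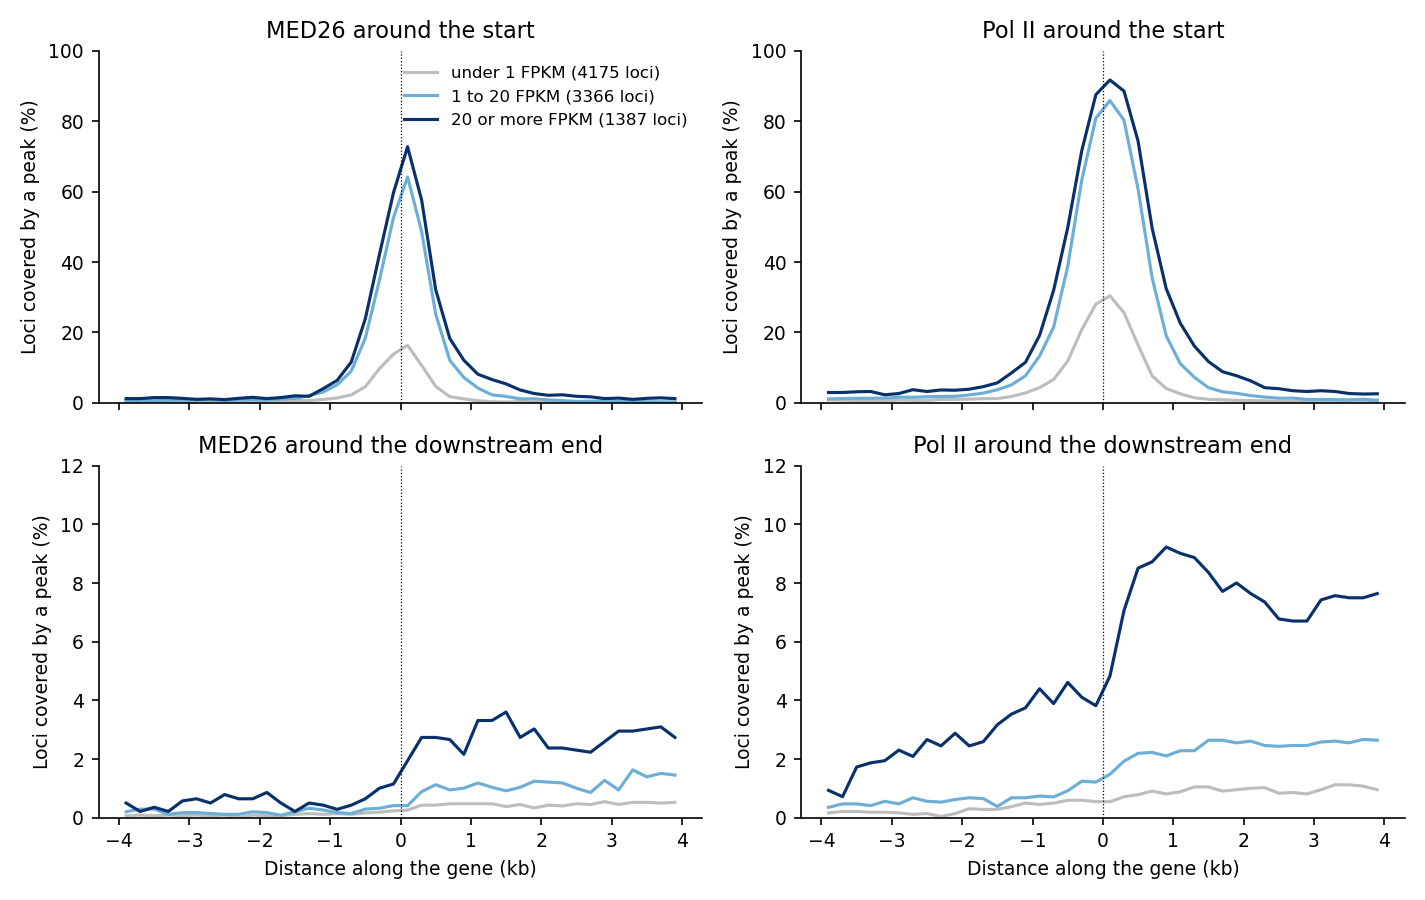
Share of loci (%) covered by a MED26 peak (left) or a Pol II peak (right) in steps of 200 bp, from 4 kb before to 4 kb after the start (top) and the downstream end (bottom), for 3 RNA levels. The lower axes stop at 12%. Both factors top out 100 bp past the start (72.7% and 91.7% in loci of 20 FPKM or more), and the Pol II line steps up past the downstream end to 9.23%.

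Promoter sequence differed between the classes at the start. The comparison covered 9444 oriented single-gene loci of any length with 1 RefSeq promoter each. Median GC content was 66.3% for the 4766 promoters with both factors, 65.3% for 872 with Pol II only, 54.0% for 101 with MED26 only and 50% for 3582 with neither. The ratio of observed to expected CpG, which is high in CpG islands, had medians of 0.869, 0.759, 0.332 and 0.260. Of the 2 MED26-only promoters printed above, COX7B had a ratio of 0.979 and CPA4 of 0.0624. GGGCGG matched 76.4%, 71.2%, 35.6% (26.99 to 45.4) and 24.8%, beside 45.0% of all 35116 RefSeq promoters of the same length. CCGGAAG matched 22.9% (21.7 to 24.1) of promoters with both factors and 8.94% (7.23 to 11.02) with Pol II only, beside 10.3% of all. AAGATGGC matched 6.84% (6.16 to 7.59) and 1.49% (0.873 to 2.53), beside 2.89% of all. TATAAA matched 4.80% with both, 6.19% with Pol II only, 15.8% (9.99 to 24.2) with MED26 only and 21.2% with neither, beside 11.5% of all. CCAAT differed little, with 37.9%, 34.3%, 32.7% and 38.8%, beside 34.6% of all. TGANTCA matched 3.78% with both factors, 4.93% with Pol II only, 9.90% (5.47 to 17.3) with MED26 only and 10.5% with neither, beside 7.71% of all, so the MED26-only share was near the background. TGACGTCA matched 3.88% of promoters with both factors, beside 1.85% of all. CACGTG matched 10.7% of them, beside 7.26% of all. Among loci under 1 FPKM, TATAAA matched 5.14% of 1011 promoters with both factors, 7.45% of 510 with Pol II only, 13.3% of 75 with MED26 only and 21.7% of 3353 with neither. From 1 to 20 FPKM the last pair changed places, with TATAAA in 16.7% of 24 MED26-only promoters and 13.8% of 196 with neither, and median GC contents of 52.2% and 55.8%. At 20 FPKM or more, 2 MED26-only promoters remained, and median GC was 68.3% with Pol II only and 67.3% with both.

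Gene lists were read against the background of 25142 genes. Of these, 52.0% had both factors at a locus end, 9.71% Pol II only, 1.54% MED26 only, 1.54% both at separate sites and 35.2% neither. This background does not match the RNA level of the lists. A gene listed at several loci was counted once, at the locus whose class came first in a fixed order. That order was both, separate sites, Pol II only, MED26 only and neither, which favours both for such genes. Of all loci, 71.2% had both factors from 1 to 5 FPKM, 79.0% from 5 to 20, 86.6% from 20 to 100 and 90.4% over 100 FPKM. All 26 mitosis genes had both factors, with a median of 28.8 FPKM, among them CDC20, an activator of the anaphase-promoting complex (582 FPKM), BIRC5, which encodes survivin (293 FPKM), and the kinase genes PLK1 (231 FPKM) and AURKB (128 FPKM). Of 61 ribosomal protein genes, 59 had both (median 740 FPKM), and RPS27A and RPL15 had neither. Both factors' own machinery was in this class too. Of 32 Mediator genes 30 had both factors, MED15 (89.5 FPKM) and MED16 (60.5 FPKM) having the highest levels, while MED27 had Pol II only and the kinase gene CDK19 neither. Of 12 Pol II subunit genes 11 had both, POLR2L (389 FPKM) and POLR2G (231 FPKM) leading, and POLR2F had neither.

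Genes of transcription elongation and of stress responses were close to these. The heat shock (87.5%, median 46.4 FPKM) and immediate-early (86.4%, median 30.1 FPKM) lists lay near the 86.6% of all loci at 20 to 100 FPKM. The elongation list (88%, median 4.23 FPKM) stood above the 71.2% of loci at 1 to 5 FPKM. The p53 list (87.5%, median 14.3 FPKM) stood above the 79.0% at 5 to 20 FPKM. Of 25 genes for elongation complexes 22 had both factors, among them the NELF subunit genes NELFB (142 FPKM) and NELFE (114 FPKM). LARP7 and SUPT4H1 had neither. Of 16 heat shock genes 14 had both, with HSPB1, a small heat shock protein gene, at 1799 FPKM, and the mitochondrial chaperonin genes HSPD1 and HSPE1, which share a bidirectional promoter, had neither at their locus ends. Of 16 p53 target genes 14 had both, among them BAX (343 FPKM) and CDKN1A, which encodes the p21 inhibitor of cyclin-dependent kinases (170 FPKM). GDF15 had Pol II only and FAS neither. Of 22 immediate-early and AP-1 genes 19 had both, with CCN1 (162 FPKM) and JUND (119 FPKM) highest. FOSL2 had Pol II only at its locus ends and the wide enhancer site described above, and ATF3 and EGR2 had neither.

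Other lists lay near or below the background of all genes, which does not match their RNA level. Matrix and bone genes (50%, median 26.5 FPKM) lay below the 86.6% of all loci at 20 to 100 FPKM. Histone (59.3%, median 1.28 FPKM) and interferon response genes (36.4%, median 1.58 FPKM) lay below the 71.2% at 1 to 5 FPKM. Genes of other cell types lay above the share of loci above 0 and up to 0.1 FPKM, the bin that holds their median. Of 59 replication-dependent histone genes 35 (59.3%) had both factors, 1 MED26 only and 23 neither. These genes are short and clustered, so a window can hold a neighbour's site, and their near-identical coding regions may split reads. Of 22 matrix and bone genes 11 (50%) had both, among them COL1A1 (376 FPKM) and COL6A2 (325 FPKM), both collagens. LOX, SPP1 and TAGLN had Pol II only, and TGFBI (46.0 FPKM) and VIM had MED26 only. Of 22 interferon response genes 8 (36.4%) had both, among them IFI6 (109 FPKM), 3 had Pol II only and 9 neither. ISG15, a ubiquitin-like modifier gene at 163 FPKM, had the 2 factors at separate sites. Of 25 genes of other cell types 6 (24.0%) had both, 3 Pol II only and 15 neither, at a median of 0.0472 FPKM, and OLIG2 (5.14 FPKM) and SYP (3.55 FPKM) were among the 6. Of the exceptions named, RPS27A, RPL15, CDK19, POLR2F, LARP7, SUPT4H1, HSPD1, HSPE1, GDF15, FAS, FOSL2, TAGLN and VIM lie in loci of 2 or more genes, where a gene's own start can lie inside the locus, while MED27, ATF3, EGR2, LOX, SPP1, TGFBI and ISG15 are single-gene loci. The lists were chosen with results of these data known, and no list was tested.

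**Figure D5:**
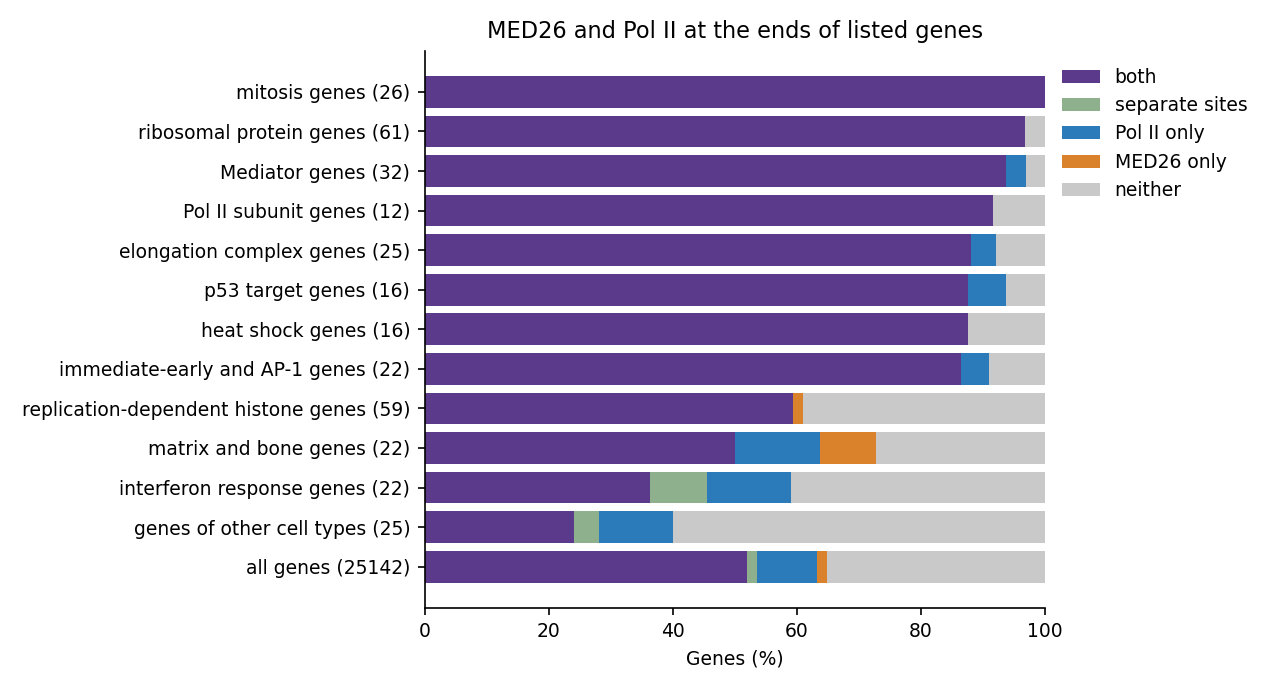
Share of the genes of each list (%) by the class of the sites at their locus ends, with the number of matched genes in brackets and all genes in the lowest bar. The bars for both factors run from 100% of mitosis genes to 24.0% of genes of other cell types, against 52.0% of all genes.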

How the data were processed

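U2OS cells were profiled by ChIP-seq and RNA-seq. The submitters' processing notes name the hg19 build and, with no role for each, Cuffdiff 2.0.2, TopHat2 2.0.8 and Bowtie 0.12.9. The authors deposited each peak list as coordinates only, without scores, in bins of 100 bp (50 bp for EP400, whose 3 immunoprecipitations came as 1 list). For the caller, its threshold and its control, the sources used here give nothing. The lists number the sex chromosomes. Number 23 was read as X, because 56.6% of its MED26 and 63.8% of its Pol II peaks then lay at gene ends, against 9.69% and 11.7% when placed on chromosome 1. RNA values are FPKM with confidence limits, deposited by the authors per the file headers. The 4 inputs and the RNA after EP400 siRNA were not analysed here.

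Peaks sharing 1 bp or more were joined into sites, and overlaps were checked against bedtools 2.31.1 and on simulated data. FPKM of rows of 200 nt or more were summed per locus, and 55 loci with a failed estimate were left out. Symbols matched 47555 of 48669 rows (97.7%). Strand and promoters came from RefSeq (GRCh38.p14) by symbol, with no coordinates carried over, and chromosome 8 promoters were not printed. Enhancers were stretches shared by H3K4me1 and H3K18ac. Computation used Python 3.11.15, numpy 2.4.6, pandas 2.3.3 and scipy 1.17.1. Shares carry Wilson 95% intervals, differences of shares intervals built from these, and medians intervals from order statistics. Depth is unknown, so the precision beyond counting error is unknown too.

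Named sites were the 6 widest of each class at gene ends and the 3 widest at enhancers, of which the text gives a part. Named loci were the 6 with the highest FPKM in each class, and up to 4 members of each gene list with the highest FPKM plus exceptions were named. Some named items are not reported here. The members, lists and rules were chosen with earlier results of these data known. The alternatives were a stricter and a looser overlap, wider peaks, lists of equal length, gene ends of 1 kb and 5 kb, short rows kept, single-gene loci and loci of 1 FPKM or more. Leaving out chromosome 16 was added after seeing the data.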

Additional observations from a re-analysis of the deposited data

How the results depend on the processing

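No paired analysis was possible because each antibody and condition had 1 library, and no replicate could be left out. Of 58 recomputed shares and medians, 27 stayed within their 95% intervals. With peaks up to 1 kb apart counted as together, 72.5% of MED26 peaks had Pol II, 58.0% of Pol II peaks had MED26, and 65.8% of sites with both, 9.20% of MED26-only and 33.7% of Pol II-only sites lay at gene ends. Among peaks at or above each list's median width these 5 shares were 74.2%, 71.9%, 74.5%, 21.7% and 56.3%, and the median FPKM of loci with both, MED26 only and Pol II only was 6.80, 0.935 and 1.40. With lists of equal length the 2 overlap shares were 60.8% and 52.1%, and 38.3% of Pol II-only sites lay at gene ends. Gene ends of 1 kb gave shares of 65.1%, 10.9% and 25.1% (both, MED26 only, Pol II only) and a Pol II-only median of 0.773 FPKM. Gene ends of 5 kb gave 73.9%, 29.9% and 50.98%, and medians of 5.38 FPKM (both) and 0.453 FPKM (Pol II only). Single-gene loci had medians of 5.02 FPKM (both) and 0.490 FPKM (Pol II only). Loci of 1 FPKM or more had medians of 11.1, 8.92 and 4.83 FPKM (both, MED26 only, Pol II only). The interval of the MED26-only median (3.44 to 13.4) held the Pol II-only one, and these loci were chosen by the value compared. Without chromosome 16, an alternative added after seeing the data, 47.7% of Pol II peaks had MED26. Of 30 recomputed differences in marks between MED26-only and Pol II-only sites, 12 stayed within their interval and 17 moved with the same sign. The EP400 difference turned to -0.444 points (-1.31 to 0.417) among wider peaks, whose width cutoffs differ between the 2 lists. The lists carry no score or depth, so a list from a deeper library or a better antibody can hold more peaks, and single-factor sites near the detection limit of the other list cannot be told apart from sites that lack it.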

Other observations

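Chromosomes differed in their make-up of sites. Pol II-only sites were 63.9% of the sites on chromosome 16 (1518, beside 615 with both factors and 244 with MED26 only) and 58.9% on chromosome 21, against 27.4% on chromosome 14. On chromosome 16 their median width was 200 bp, as on each of the other autosomes and X, and 14.1% met Pol II again after EP400 siRNA, against 20.9% of all Pol II-only sites. This was not particular to chromosome 16, since the shares were 13.5% on chromosome 22 and 14.2% on chromosome 21. MED26-only sites took their largest shares on chromosomes 20 (35.8%) and 8 (34.2%) and their smallest on chromosome 16 (10.3%).

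Distance to the other factor split the single-factor sites. MED26-only sites lay a median of 6.6 kb from the nearest Pol II peak, with 3090 (29.7%) within 1 kb and 4580 (44.0%) over 10 kb away. Pol II-only sites lay a median of 5.9 kb from MED26, with 23.1% within 1 kb and 40.3% over 10 kb away. The MED26-only sites over 10 kb away were at gene ends in 6.83% of cases, against 33.6% of the Pol II-only sites at that distance. They overlapped H3K18ac in 40.6% of cases and H2AZ in 10.7%, and the Pol II-only sites in 21.1% and 26.0%. H3.3 overlapped 44.0% of the MED26-only sites within 1 kb of Pol II and 20.3% of those over 10 kb away.

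Few small RNA genes matched the table. Of 6 Pol II snRNA genes that matched the table, 5 had both factors at their locus ends, against 52.0% of all genes. RNU11 and RNU12 are single-gene loci, while RNU5D-1 and RNU5E-1 share 1 locus of 9 genes and RNU4ATAC lies in a locus of 2 genes. Of 9 matched genes transcribed by Pol III, 4 had both, among them RMRP (5.19 FPKM) and RPPH1 (6.03 FPKM), the RNA parts of RNase MRP and RNase P, while VTRNA1-1, a vault RNA gene, had MED26 only and 3 had neither.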
